A study of Mus musculus with 12 samples.

Results

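Transcripts of the clustered histone genes were lower after each compound in Min6 cells, a mouse insulin-secreting beta cell line. Their summed level was lowest where the compounds were combined. Summed over 53 genes, they stood at 74.7 ± 7.42 CPM with the FoxO1 inhibitor AS1842856, 82.3 ± 9.10 CPM with loperamide and 54.5 ± 4.54 CPM with both, against 170 ± 26.1 CPM in the solvent DMSO (SD, n = 3 libraries each). The DMSO libraries ran from 150.4 to 199.9 CPM, above every treated library, the highest of which reached 92.5 CPM. CPM are counts scaled to a common library size. The summed level of each of the 5 histone classes was below that in DMSO. In the H3 class it was 1.89 CPM with both compounds and 1.80 CPM with loperamide. At an adjusted p under 0.05, 6 of 53 members were called lower with both than with the FoxO1 inhibitor alone, and 7 than with loperamide alone. The shares of all genes were 11.1% and 14.4%, so these counts lie near the background. Among the more abundant genes, H2aw passed the test against DMSO in no comparison, and H3c15 and H4c4 did not pass it with FoxOi. With Loperamide, H2bc21, Hist1h2al and H2ac19 did not pass it either.

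The 53 members are mouse genes of the histone clusters with at least 10 counts summed over the 12 libraries, out of 55487 genes in the table. They were chosen by name, as genes whose symbol starts with Hist1h, Hist2h, Hist3h or Hist4h in the GENCODE M21 annotation, matched by gene ID. The counts table itself writes most of them with newer symbols, such as H1f2 and H2bc4, and only 6 members carry a Hist symbol there: Hist1h2an, Hist1h2bp, Hist1h2ao, Hist1h4m, Hist1h2br and Hist1h2al. Of 69 clustered histone genes, H2ac1 with 6 counts, H2ac7 with 6 and H2ac12 with 7 fell just short of the minimum, while H3c2 with 11, Hist1h2an with 12 and H3c10 with 12 just passed it. The members comprise 5 linker histone H1 genes and 13 H2A, 13 H2B, 10 H3 and 12 H4 genes.

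Cells were kept for 48 h in 1 µM AS1842856 (FoxOi), in 5 µM loperamide (Loperamide), an opioid receptor agonist, in both at these doses (FoxOi_Loperamide), or in DMSO alone, with 3 libraries in each group. Min6 is a single line, and the labels do not say whether libraries of a group came from separate cultures, so the p-values measure the spread between these libraries, which may be technical. Libraries were made with a stranded mRNA kit and read as single reads of 50 bases, to 10640485 to 19499216 counts per library. The members took 17712 of these counts, 0.00937% of all counts, and H1f2 alone held 42.5% of the members' counts, so most single members rest on few reads.

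Core histones H2A, H2B, H3 and H4 form the spool around which DNA is wrapped, and linker histone H1 binds the DNA between spools. The clustered genes supply these proteins while DNA is copied: their mRNAs accumulate in S phase and are removed when it ends. They have no introns as a rule and end in a conserved stem-loop, bound by Slbp, in place of a poly(A) tail. Histone variants are encoded elsewhere in the genome, mostly by mRNAs with poly(A) tails, and many of them are made throughout the cell cycle. Libraries made from poly(A) RNA are known to take up few of these transcripts.

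The stem-loop was present in the annotated transcripts of 36 of the 53 members. Many of the 17 without a match, such as H1f5, H2ac15, H2bc15, H3c10 and H4c12, are annotated with 0 bases after the coding part. In those a stem-loop could not be seen, so no match does not mean that the gene lacks it. Some of the sites found are shown because they define how the mRNAs end. Capitals mark the 16 letters of the stem-loop, read 5′ to 3′ on the gene's strand from GENCODE M21 transcripts (GRCm38).
H1f2, chr13:23739507-23739532, plus strand: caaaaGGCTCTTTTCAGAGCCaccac
H2bc8, chr13:23571838-23571863, plus strand: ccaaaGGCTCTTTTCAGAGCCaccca
H2bc3, chr13:23747198-23747223, plus strand: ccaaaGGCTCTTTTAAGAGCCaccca
H2bu2, chr11:58949344-58949369, plus strand: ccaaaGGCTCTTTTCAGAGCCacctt
H3c15, chr3:96238480-96238505, minus strand: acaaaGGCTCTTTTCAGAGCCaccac
H4c9, chr13:22040961-22040986, minus strand: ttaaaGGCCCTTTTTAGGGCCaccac
H4c8, chr13:23531453-23531478, plus strand: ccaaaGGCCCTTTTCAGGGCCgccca
The letters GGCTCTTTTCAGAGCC occurred in 21 members, of the H1, H2A, H2B and H3 classes. The H4 members carried other letters: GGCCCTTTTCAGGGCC in 6, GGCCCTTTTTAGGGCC in 2 and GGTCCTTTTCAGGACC in 2. In these the paired arms differ on both sides, so that the stem can still form.

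Annotated transcripts of several members ran well past the stem-loop. The H1f2 transcript continued for 840 bases after it, that of H4c9 for 330, that of H2bu2 for 169 and that of H2bc8 for 155, and these were among the 5 members with most counts. The remaining one, H2bc4, had a 3′ UTR of 742 bases with no match to the stem-loop. Over the 36 members with a stem-loop the median run after it was 162 bases, and 20 members had 100 or more. The 25 members with an annotated 3′ UTR of at least 150 bases, a split chosen after their values were seen, had a median of 90.0 counts over the 12 libraries, and the other 28 had a median of 53.0. These counts are not scaled by transcript length. Per gene length and library size (FPKM) the order was turned, with medians in DMSO of 0.710 for the 25 and 1.02 for the 28.

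Levels per length in DMSO were led by H1f2, a linker histone gene, at 44.6 ± 10.1 FPKM (SD, n = 3). H2bc4 followed at 18.2 ± 3.18 FPKM, H4c9 at 17.2 ± 1.61 FPKM, H2bu2 at 13.7 ± 1.26 FPKM and H2bc8 at 13.6 ± 3.23 FPKM. H2bc4 and H4c9 did not differ beyond their SD, nor did H2bu2 and H2bc8. The median member stood at 0.851 FPKM, and the lowest, H4f16, at 0.0304 FPKM. FPKM are counts per gene length and library size, as the authors deposited them.

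Many members are near-identical copies. In a median member 55.9% of the 50-base windows of its annotated transcripts occur in no other annotated transcript, and in 21 members the share was under 50%. None of the windows of H2ac19 were unique, and its copy H2ac18, in which 10.6% were, had 0 counts, so reads of the shared windows cannot be assigned to either gene. Unique windows made up 10.2% for Hist1h4m, 20.3% for H2ac10, 32.4% for Hist1h2al and 36.5% for H3c15, and the values of these genes are uncertain in the same way. In the fit of all 53 members described further on, the counts called lower among the 32 members with at least 50% unique windows were 14 with FoxOi, 16 with Loperamide and 24 with both. Among the other 21 they were 6, 4 and 10. Of all genes in that fit 15.5%, 12.1% and 17.9% were called lower, so the 4 of 21 with Loperamide lie near the background.

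**Figure D1:**
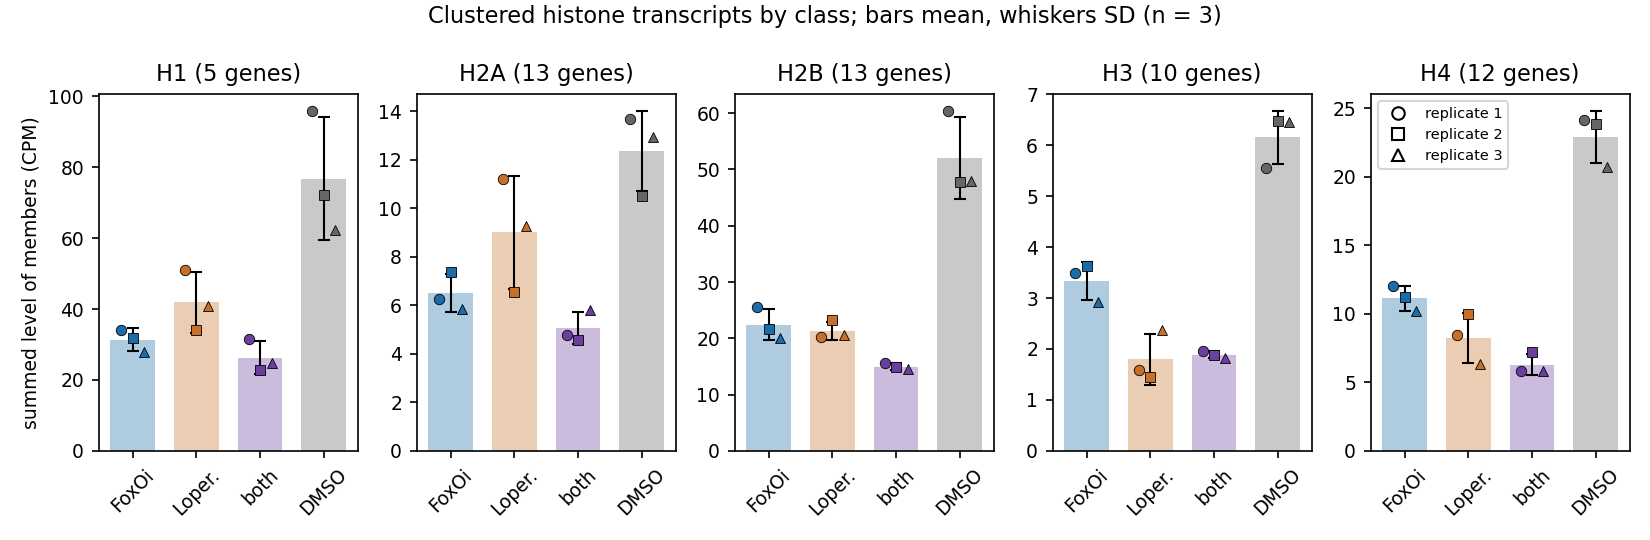
Summed CPM of the members of each histone class (y axis, linear, from 0) in FoxOi, Loperamide, FoxOi_Loperamide (both) and DMSO libraries. Points are libraries, bars means and whiskers SD (n = 3). In every class the 3 FoxOi_Loperamide libraries lie below the 3 DMSO libraries, and Loperamide reaches the range of DMSO in the H2A class alone.

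By class, H1 transcripts summed to 31.3 ± 3.26 CPM with FoxOi, 42.0 ± 8.61 CPM with Loperamide and 26.3 ± 4.64 CPM with both, against 76.8 ± 17.3 CPM in DMSO (SD, n = 3 each). H2B summed to 22.4 ± 2.81, 21.3 ± 1.62 and 14.96 ± 0.559 CPM in the same 3 treated groups, against 52.1 ± 7.27 CPM in DMSO. H4 summed to 11.1 ± 0.915, 8.25 ± 1.82 and 6.29 ± 0.779 CPM, against 22.9 ± 1.93 CPM. The treated and DMSO libraries did not overlap in these classes.

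H2A summed to 6.49 ± 0.781 CPM with FoxOi, 8.998 ± 2.34 CPM with Loperamide and 5.05 ± 0.655 CPM with both, against 12.4 ± 1.65 CPM in DMSO. One Loperamide library, at 11.2 CPM, exceeded the lowest DMSO library, at 10.52 CPM. H3 summed to 3.34 ± 0.372 CPM with FoxOi, 1.80 ± 0.501 CPM with Loperamide and 1.89 ± 0.0656 CPM with both, against 6.16 ± 0.521 CPM in DMSO. The ratio of means to DMSO under Loperamide thus ran from 0.29 for H3 to 0.73 for H2A, and under FoxOi from 0.41 for H1 to 0.54 for H3. Without H1f2 the other 52 members summed to ratios of 0.45 with FoxOi, 0.42 with Loperamide and 0.30 with both.

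In a fit that kept all genes with at least 10 counts, so that every member was tested, 20 of 53 members were called lower with FoxOi than in DMSO and 0 higher, at an adjusted p under 0.05. In that fit 15.5% of all 22309 genes were called lower and 15.9% higher. With Loperamide 20 of 53 were called lower and 0 higher, where the shares of all genes were 12.1% and 10.8%. With both compounds 34 of 53 were called lower and 0 higher, where the shares were 17.9% and 17%. The median log2 fold changes of the 53 members were -1.11, -1.48 and -1.74 in these 3 comparisons, whereas the medians of all genes were 0.01, 0.00 and -0.01. The 3 comparisons share the DMSO libraries. The minimum of 10 counts includes those in DMSO, so some members entered this fit through DMSO, which favours lower values. Among them, H1f5 and H4c2, called lower with both, had 11 and 12 of their 19 counts in DMSO. Other counts over the 53 members carry the same limit. For both compounds against FoxOi alone 6 of 53 were called lower and 0 higher, where the shares of all genes were 11.1% and 8.64%. Against Loperamide alone 7 were called lower and 0 higher, where the shares were 14.4% and 14.6%. In the interaction, described further on, 0 were called lower and 1 higher, where the shares were 3.76% and 2.95%.

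Library by library, 35 of 53 members were lower in all 3 FoxOi libraries than in every DMSO library, against 20.8% of all genes. For Loperamide this held for 27 members, against 17.6% of genes, and for the combination for 42 members, against 23.5%. The combined libraries were all lower than FoxOi libraries for 12 members, against 19.2% of genes, and all lower than Loperamide libraries for 10, against 22.1%. Group means were not below DMSO for H3c2 and H4c1 with FoxOi, for H4c14, H2aw and H4c1 with Loperamide, and for H4f16 with both. Of these, only H2aw had more than 1 CPM in DMSO.

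The usual filter on low counts left 27 members among 16808 genes, and single genes are described from that fit. FoxOi lowered 18 of these 27, Loperamide 20 and the combination 26, and 0 rose. Of all genes tested, 40.9%, 31.9% and 45.5% were called in either direction in these comparisons. The shares called lower were 20.3%, 15.8% and 23.2%, and those called higher 20.7%, 16.1% and 22.3%. Of the 27 members, 11 passed the filter only because of the DMSO libraries, so their counts carry a bias toward lower values. These were H1f4, H2ac6, H2ac10, H2ac20, Hist1h2bp, H3c4, H3c8, H4c6, H4c11, H4c12 and Hist1h4m. The 16 that pass without DMSO held 12, 11 and 15 of the lower calls. Among the 6 members with a Hist symbol in the counts, the number tested was 3, and FoxOi lowered 3, Loperamide 2 and the combination 3.

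**Figure D2:**
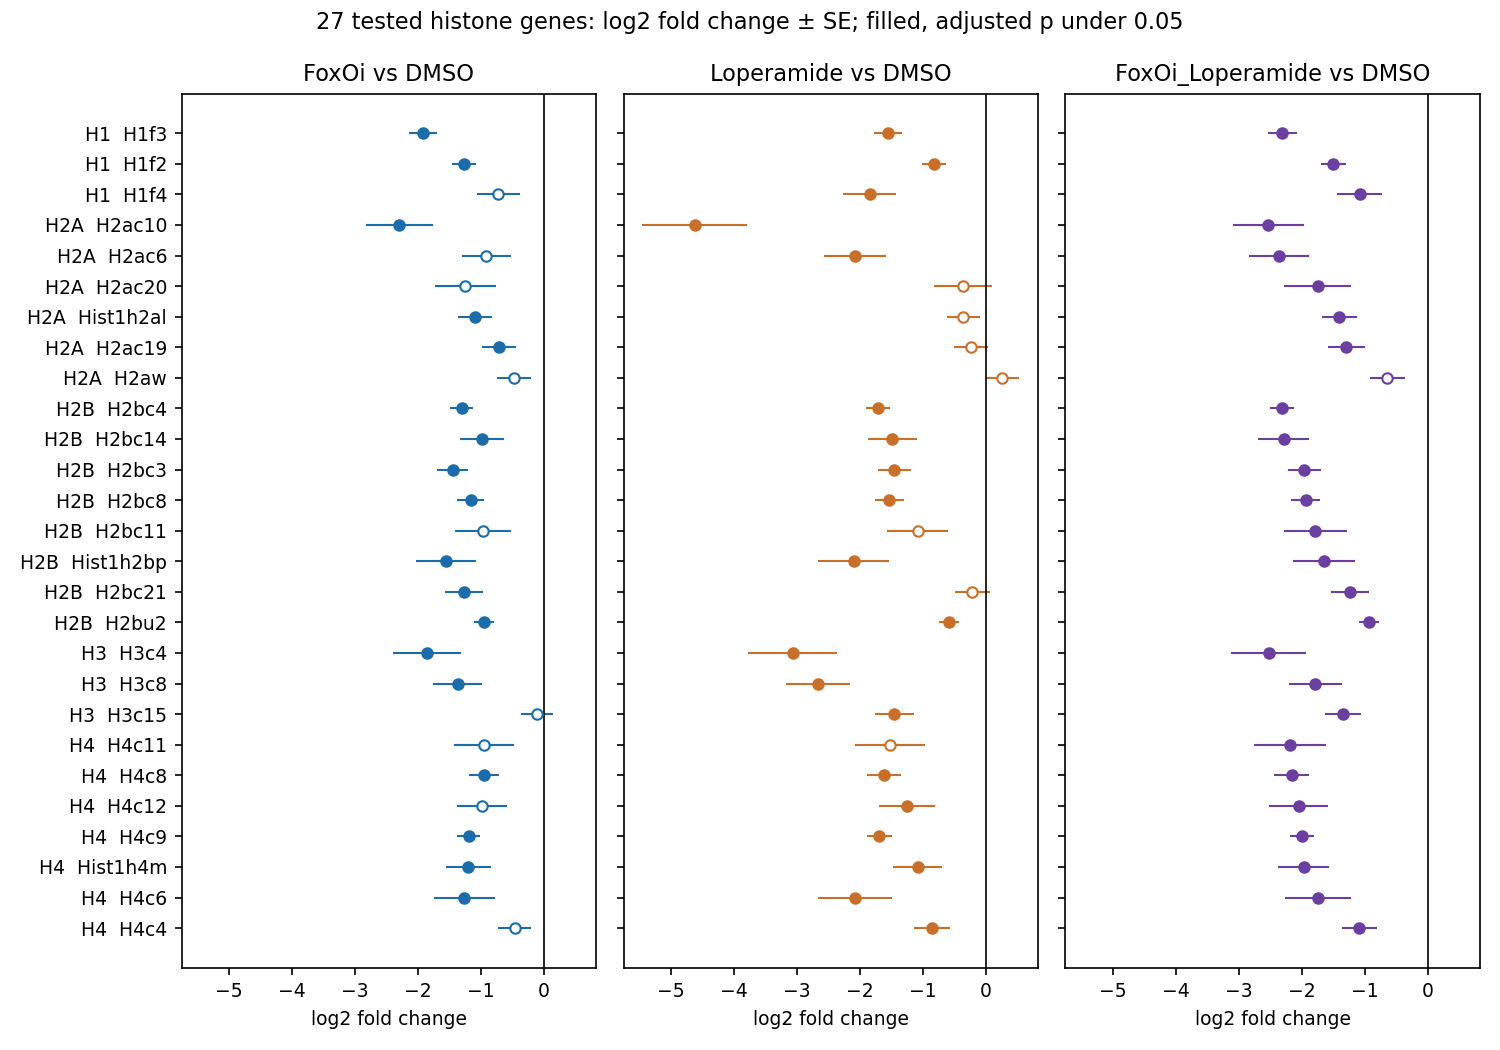
Log2 fold change against DMSO (x axis) of the 27 tested members, grouped by class, with FoxOi, Loperamide and both in separate panels. Whiskers are SE, filled points have an adjusted p under 0.05. All points in the FoxOi and FoxOi_Loperamide panels lie left of 0, and H2aw is right of 0 under Loperamide, where it was not called.

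H1f2, the most abundant linker histone transcript here, measured 32.5, 29.4 and 25.4 CPM in FoxOi libraries, 48.9, 31.2 and 38.9 CPM in Loperamide libraries and 30.0, 21.2 and 23.0 CPM in FoxOi_Loperamide libraries, against 88.3, 65.5 and 56.2 CPM in DMSO libraries. All 9 treated libraries were below the lowest DMSO library. Against DMSO its log2 values changed by -1.27 ± 0.19 (SE, adjusted p = 0.000152) with FoxOi, -0.82 ± 0.19 (SE, adjusted p = 0.00525) with Loperamide and -1.50 ± 0.19 (SE, adjusted p = 3.34e-05) with both. H1f3, another linker subtype, measured 1.10, 1.48 and 1.59 CPM in FoxOi libraries, 1.58, 2.43 and 1.37 CPM in Loperamide libraries and 1.03, 1.13 and 1.04 CPM in FoxOi_Loperamide libraries, against 6.14, 4.92 and 4.84 CPM in DMSO libraries. It fell in all 3 comparisons, with log2 fold changes of -1.92, -1.56 and -2.31 with FoxOi, Loperamide and both, and its groups did not overlap with DMSO. H1f4 fell with Loperamide (-1.85 ± 0.43) and with both (-1.09 ± 0.36), while with FoxOi its value was -0.73 ± 0.34 (adjusted p = 0.0994). H1f4 overlaps H2bc6 on the same strand, so reads of the overlap cannot be told apart.

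H2bc4, an H2B gene, measured 11.1, 7.69 and 6.97 CPM in FoxOi libraries, 6.80, 7.07 and 5.54 CPM in Loperamide libraries and 4.63, 4.38 and 3.72 CPM in FoxOi_Loperamide libraries, against 25.6, 20.04 and 18.05 CPM in DMSO libraries. All 9 treated libraries were below the DMSO libraries, and the combined libraries below all others. Against DMSO it changed by -1.31 ± 0.18 (SE, adjusted p = 3.61e-05) on the log2 scale with FoxOi, -1.72 ± 0.19 (SE, adjusted p = 9.98e-06) with Loperamide and -2.32 ± 0.19 (SE, adjusted p = 2.15e-07) with both. H2bc8, an H2B gene of the same cluster, measured 4.70, 3.57 and 3.07 CPM in FoxOi libraries, 2.24, 3.50 and 2.95 CPM in Loperamide libraries and 2.39, 1.81 and 2.38 CPM in FoxOi_Loperamide libraries, against 10.8, 6.78 and 7.78 CPM in DMSO libraries. It fell with FoxOi (-1.16 ± 0.21), Loperamide (-1.53 ± 0.23) and both (-1.94 ± 0.23), without overlap with DMSO. H2bc3 changed almost alike with each compound, at -1.45 ± 0.25 and -1.46 ± 0.26, and by -1.96 ± 0.27 with both.

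H2bu2, an H2B gene of the small cluster on chromosome 11, fell less. It measured 3.83, 5.05 and 4.20 CPM in FoxOi libraries, 4.75, 6.38 and 5.68 CPM in Loperamide libraries and 3.97, 4.44 and 4.88 CPM in FoxOi_Loperamide libraries, against 9.46, 7.84 and 8.14 CPM in DMSO libraries. Its treated libraries were all below DMSO, and the log2 differences from DMSO were -0.96 ± 0.16 (SE, adjusted p = 0.000220), -0.59 ± 0.16 (SE, adjusted p = 0.0115) and -0.94 ± 0.16 (SE, adjusted p = 0.000236) for FoxOi, Loperamide and both. Leaving out Loperamide replicate 1 ended its call with Loperamide (adjusted p = 0.0522). H2bc21, an H2B gene on chromosome 3, was lower with FoxOi (-1.27 ± 0.30) and with both (-1.23 ± 0.30), while with Loperamide its value was -0.22 ± 0.28 (adjusted p = 0.596). Its Loperamide libraries, at 1.40, 2.28 and 2.37 CPM, overlapped the DMSO libraries, at 1.92, 2.86 and 2.35 CPM.

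H2aw, the H2A gene beside H2bu2, had the most counts of the H2A genes and was not called against DMSO. It measured 2.38, 2.80 and 1.90 CPM in FoxOi libraries, 4.94, 2.43 and 4.46 CPM in Loperamide libraries and 1.80, 1.94 and 2.56 CPM in FoxOi_Loperamide libraries, against 3.90, 2.49 and 3.45 CPM in DMSO libraries. The libraries of each treated group overlapped the DMSO libraries. In a fit with a block for replicate number it was called lower with both (adjusted p = 0.0215). Its log2 fold changes against DMSO were -0.47 ± 0.27, 0.26 ± 0.26 and -0.64 ± 0.28 for FoxOi, Loperamide and both, with adjusted p of 0.178, 0.494 and 0.0703. H2aw overlaps Trim17 on the same strand. H2ac19 fell with FoxOi (-0.72 ± 0.27 (SE, adjusted p = 0.0437)) and with both (-1.29 ± 0.29 (SE, adjusted p = 0.00209)), and stood at -0.25 ± 0.27 (SE, adjusted p = 0.529) with Loperamide. Leaving out DMSO replicate 1 ended the FoxOi call (adjusted p = 0.159), as did leaving out any of 6 other libraries. Hist1h2al, annotated as a processed pseudogene at chr13:51202727-51203065 (GRCm38), outside the cluster, fell with FoxOi (-1.10 ± 0.26) and both (-1.40 ± 0.28). With Loperamide it stood at -0.36 ± 0.26 (adjusted p = 0.317).

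Of the other H2A genes, H2ac6 fell with Loperamide and with both compounds. It measured 0.466, 0.228 and 0.0719 CPM with Loperamide, against 1.02, 0.871 and 1.25 CPM in DMSO, which is -2.08 ± 0.49 (SE, adjusted p = 0.00497) on the log2 scale. With both it stood at -2.36 ± 0.47, and with FoxOi at -0.92 ± 0.38 (adjusted p = 0.0700, or 0.0422 with a block for replicate number). H2ac10 had 0, 1 and 0 counts in the Loperamide libraries, against 14, 12 and 12 in DMSO. Summed over libraries, the ratio was 0.0316, with an exact 95% interval from counting of 0.000779 to 0.187, which covers counting error only. FoxOi left 1, 6 and 2 counts and the combination 1, 4 and 2 counts, and both were called lower than DMSO, at -2.30 ± 0.53 and -2.53 ± 0.56. H2ac6 and H2ac10 passed the filter only because of DMSO, so their being tested already favoured a fall.

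H3c15, an H3 gene on chromosome 3, measured 1.74, 1.54 and 1.38 CPM in FoxOi libraries, 0.280, 0.684 and 0.791 CPM in Loperamide libraries and 0.544, 0.688 and 0.732 CPM in FoxOi_Loperamide libraries, against 1.53, 1.80 and 1.69 CPM in DMSO libraries. FoxOi libraries overlapped the DMSO libraries (-0.11 ± 0.25, adjusted p = 0.752), and Loperamide and combined libraries were all lower, with log2 fold changes of -1.46 and -1.35. H3c15 was also lower with both compounds than with FoxOi alone (-1.24 ± 0.28 (SE, adjusted p = 0.00458)). The difference of its Loperamide and FoxOi responses was not tested directly. H3c8 and H3c4, H3 genes of the chromosome 13 cluster, were lower with FoxOi (-1.37 ± 0.39 and -1.86 ± 0.53), Loperamide (-2.67 ± 0.51 and -3.07 ± 0.71) and both (-1.79 ± 0.42 and -2.53 ± 0.60). These 2 genes passed the filter only because of DMSO, which favours a fall. H3c4 had 1, 11 and 2 counts with FoxOi, so 1 library differed from the other two. Leaving out FoxOi replicate 3 ended its FoxOi call (adjusted p = 0.0548).

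H4c9, the leading H4 transcript, measured 6.27, 5.49 and 4.71 CPM in FoxOi libraries, 4.10, 4.79 and 2.80 CPM in Loperamide libraries and 3.16, 3.69 and 2.56 CPM in FoxOi_Loperamide libraries, against 13.7, 12.7 and 11.2 CPM in DMSO libraries. The treated libraries were all lower than DMSO. On the log2 scale it changed by -1.20 ± 0.18 (SE, adjusted p = 9.39e-05) with FoxOi, -1.69 ± 0.19 (SE, adjusted p = 1.48e-05) with Loperamide and -2.00 ± 0.19 (SE, adjusted p = 9.94e-07) with both. H4c8 followed with -0.95 ± 0.24, -1.62 ± 0.27 and -2.16 ± 0.28. H4c4 fell by less, with Loperamide (-0.86 ± 0.29) and both (-1.09 ± 0.28), and stood at -0.47 ± 0.26 (adjusted p = 0.168) with FoxOi. Hist1h4m was lower in all 3 comparisons, at -1.20 ± 0.36, -1.09 ± 0.38 and -1.97 ± 0.41. Its Loperamide call (adjusted p = 0.0430) was lost in 9 of the 12 fits that left out 1 library.

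H2bc14, an H2B gene, had 33, 20 and 24 counts with FoxOi, 21, 10 and 6 with Loperamide and 14, 6 and 9 with both, against 48, 38 and 41 in DMSO. It was called lower with FoxOi (adjusted p = 0.0331), Loperamide (adjusted p = 0.00988) and both. Leaving out Loperamide replicate 3 ended its Loperamide call (adjusted p = 0.0505), and leaving out any of several libraries, such as DMSO replicate 1 (adjusted p = 0.0674), ended its FoxOi call. The remaining 6 tested members were lower with both compounds. They were H2bc11 (-1.79 ± 0.50), Hist1h2bp (-1.65 ± 0.49), H2ac20 (-1.75 ± 0.53), H4c12 (-2.05 ± 0.46), H4c6 (-1.74 ± 0.52) and H4c11 (-2.19 ± 0.57). With FoxOi only Hist1h2bp and H4c6 of these were called, and with Loperamide Hist1h2bp, H4c12 and H4c6. With a block for replicate number, H2bc11, H2ac20 and H4c12 were also called with FoxOi (adjusted p = 0.0372, 0.0215 and 0.0177), and H2bc11 and H4c11 with Loperamide (adjusted p = 0.0450 and 0.0178). All lie in the chromosome 13 cluster except H2ac20, the chromosome 3 neighbour of H2bc21.

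The 26 members below the usual filter had 11 to 87 counts each over the 12 libraries. Together they summed to 3.67 ± 0.679 CPM with FoxOi, 3.74 ± 0.832 CPM with Loperamide and 2.91 ± 0.139 CPM with both, against 8.60 ± 1.36 CPM in DMSO (SD, n = 3 each). The treated libraries were all below the DMSO libraries in this sum. In the fit with the lower filter H2ac15, Hist1h2br and H2bc6 were called lower with FoxOi, H3c3 with Loperamide, and H1f5, H2ac4, H2ac8, H2ac21, H2bc6, H2bc9, H3c3 and H4c2 with both. The members called in none of these were H1f1, H2ac14, Hist1h2an, Hist1h2ao, H2bc7, H2bc15, H3c1, H3c2, H3c6, H3c7, H3c10, H3c11, H4c1, H4c3, H4c14 and H4f16. A difference in these was not detectable at their depth.

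**Figure D3:**
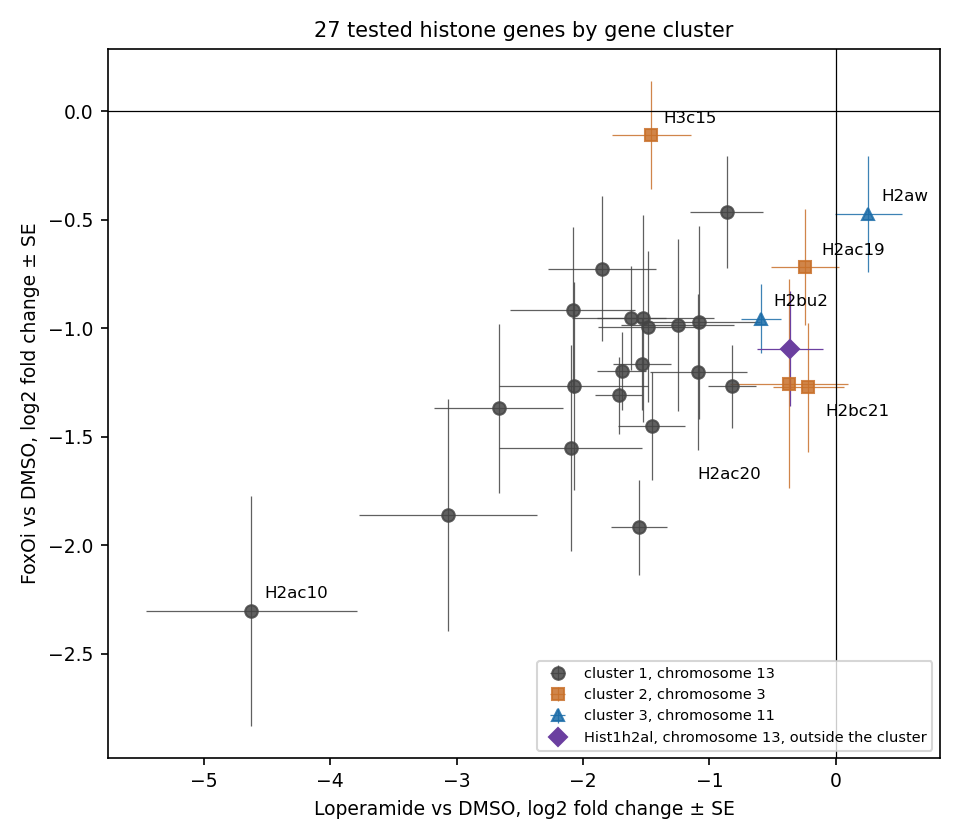
Log2 fold change with Loperamide (x axis) and with FoxOi (y axis) against DMSO for the 27 tested members, marked by genomic cluster. Whiskers are SE, and both axes share the DMSO libraries. The genes of the chromosome 13 cluster lie at -0.82 or lower on the Loperamide axis, and those of chromosomes 3 and 11, other than H3c15 and H2bu2, lie between -0.37 and 0.26 on it.

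Position along the genome marked a difference under Loperamide, seen after the values. In the fit of all 53 members, 18 of the 43 in the large cluster on chromosome 13 were called lower with Loperamide, at a median log2 fold change of -1.55. On chromosome 3, 1 of 6 was called lower, H3c15, and the median was -0.31. On chromosome 11, 1 of 2 was called lower, H2bu2. Of all genes in that fit 12.1% were called lower. With FoxOi the same clusters had 17 of 43, 1 of 6 and 1 of 2 members called lower, where the share of all genes was 15.5%. Of the 27 members that passed the usual filter, 10 of the 20 on the chromosome 13 cluster and 1 of the 4 on chromosome 3 passed only through DMSO, so the plot by cluster holds more members high in DMSO on chromosome 13. As summed levels over members, Loperamide stood at 0.44 of DMSO on chromosome 13, 0.74 on chromosome 3 and 0.81 on chromosome 11, and FoxOi at 0.42, 0.58 and 0.57. This difference between clusters was not tested, and it rests on few genes outside chromosome 13.

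Adding loperamide to FoxOi lowered 6 of the 27 tested members and raised 0, where 26.6% of all genes were called in either direction, 15.1% lower and 11.5% higher. They were H2bc4, H2bc8, H2bc14, H3c15, H4c9 and H4c8. H2bc4 changed by -1.01 on the log2 scale, H4c8 by -1.21 and H2bc14 by -1.29. H1f2 did not pass the test (-0.23 ± 0.20 (SE, adjusted p = 0.425); adjusted p = 0.0348 with a block for replicate number), nor did H2bu2 (0.02 ± 0.17 (SE, adjusted p = 0.951)). With the block H2ac6 was also called lower (adjusted p = 0.0261). The members' share called lower, 22.2%, is close to the background. The calls of H2bc14 and H2bc8 were lost without single libraries, H2bc14 for 6 and H2bc8 for 4 of the 12.

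Adding FoxOi to loperamide lowered 7 of 27 and raised 0, where 38.9% of all genes were called in either direction, 20.5% lower and 18.4% higher. They were H1f2 (-0.68 ± 0.20), H1f3 (-0.75 ± 0.27), H2bc4 (-0.60 ± 0.21), H2bc21 (-1.02 ± 0.31), H2aw (-0.90 ± 0.28), H2ac19 (-1.05 ± 0.31) and Hist1h2al (-1.04 ± 0.30). H2aw measured 1.80, 1.94 and 2.56 CPM with both, against 4.94, 2.43 and 4.46 CPM with Loperamide. With the block for replicate number H2ac20 was also called lower (adjusted p = 0.0460). The members' share called lower, 25.9%, is close to the background. The count of calls dropped to 3 without FoxOi_Loperamide replicate 1 or 2, and to 4 without Loperamide replicate 1, 2 or 3.

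The interaction asks whether the log2 change of the combination differs from the sum of the single changes. In the fit of all 53 members its median was 0.58, against 0.00 over all genes, and it was above 0 for 39 members and below 0 for 14. Among the 27 that passed the usual filter, 11 did so only through DMSO, which enters the interaction with a plus sign, so the sign over these 27 is not read. In that fit the call was made for 1 member, H2ac10 (4.39 ± 1.28 (SE, adjusted p = 0.0442)), against 9.48% of all genes called in either direction, 3.66% higher and 5.82% lower. That call rests on 1 count in the Loperamide libraries, and it was lost in 9 of the 12 fits without 1 library. For the abundant H1f2 and H2bc4 the interaction was 0.59 ± 0.27 (SE, adjusted p = 0.212) and 0.71 ± 0.27 (SE, adjusted p = 0.126). A fit with a block for replicate number called 7 members higher in place of 1: H2ac10, H1f2 (adjusted p = 0.00123), H4c9 (0.00344), H2bc4 (0.00600), H1f3 (0.0184), H3c8 (0.0207) and H2bu2 (0.0410). Library codes in the labels match the replicate numbers in every group, and 17 of 18 same-numbered pairs of libraries had correlated deviations over 0.1, the exception being 1 pair of Loperamide and combined libraries at 0.0915.

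Histone variant genes, which lie outside the clusters and whose mRNAs mostly carry poly(A) tails, were mostly lower. Of 11, 8 were called lower and 1 higher with FoxOi, 6 and 0 with Loperamide, and 8 and 1 with both. Of all genes 20.3%, 15.8% and 23.2% were called lower. H1f0, a linker variant of resting cells, measured 141 ± 14.9 CPM with FoxOi, 227 ± 18.9 CPM with Loperamide and 129.7 ± 9.85 CPM with both, against 319 ± 16.7 CPM in DMSO (SD, n = 3 each), and changed by -1.18, -0.49 and -1.30 on the log2 scale in these comparisons. Cenpa, the centromeric H3, changed by -1.11, -0.96 and -0.63. H3f3b, which encodes the replacement histone H3.3, had log2 fold changes of -0.82 ± 0.12, -0.35 ± 0.12 and -0.59 ± 0.12. H2az1, which encodes H2A.Z, was the 1 that rose, by 0.31 ± 0.07 with FoxOi and 0.45 ± 0.07 with both, and it stood at -0.13 ± 0.07 with Loperamide.

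Of 15 tested genes for factors that make and process histone mRNA, 3 rose and 3 fell with FoxOi, 1 and 1 with Loperamide, and 3 and 3 with both. These are 40%, 13.3% and 40% of the list, at or below the 40.9%, 31.9% and 45.5% of all genes. Slbp, which binds the stem-loop, measured 73.0 ± 3.38 CPM with FoxOi, 76.9 ± 4.88 CPM with Loperamide and 75.8 ± 4.78 CPM with both, against 76.1 ± 2.18 CPM in DMSO (SD, n = 3 each), and was not called in any comparison. Npat, an activator of histone gene transcription, was not called either, at 0.33 ± 0.18, 0.38 ± 0.18 and 0.43 ± 0.18. Lsm10, a subunit of the particle that cleaves histone pre-mRNA, rose by 0.79 ± 0.11, 0.81 ± 0.11 and 1.19 ± 0.11. Lsm11, its partner there, rose with FoxOi (0.44 ± 0.12) and both (0.66 ± 0.12). Of 11 histone chaperone genes, 1 rose and 1 fell with FoxOi, 0 and 3 with Loperamide, and 1 and 1 with both, or 18.2%, 27.3% and 18.2% of the list, below the share of all genes. Chaf1b, of the complex that deposits histones on new DNA, rose by 0.88 ± 0.10 with FoxOi and 0.92 ± 0.10 with both.

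Of 24 S phase genes, 1 rose and 2 fell with FoxOi, 0 rose and 12 fell with Loperamide, and 1 rose and 8 fell with both. Of all genes 20.3%, 15.8% and 23.2% were called lower in these comparisons and 20.7%, 16.1% and 22.3% higher, so that with FoxOi the S phase list lay below the background. Rrm2, the regulated subunit of ribonucleotide reductase, measured 128 ± 7.42 CPM with FoxOi, 49.4 ± 7.42 CPM with Loperamide and 60.6 ± 8.39 CPM with both, against 146 ± 11.7 CPM in DMSO (SD, n = 3 each). Compared with DMSO it changed by -0.19 ± 0.12 (SE, adjusted p = 0.225) on the log2 scale with FoxOi, -1.56 ± 0.12 (SE, adjusted p = 4.52e-07) with Loperamide and -1.27 ± 0.12 (SE, adjusted p = 8.47e-07) with both. Cdc6, a replication licensing factor, fell with Loperamide (-0.77 ± 0.12) and both (-0.90 ± 0.12). Pcna, the DNA polymerase clamp, fell with Loperamide (-0.32 ± 0.11) and was not called with FoxOi (0.10 ± 0.11) or both (0.01 ± 0.11). In these bulk libraries fewer cells in S phase and less histone RNA per cell cannot be told apart.

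**Figure D4:**
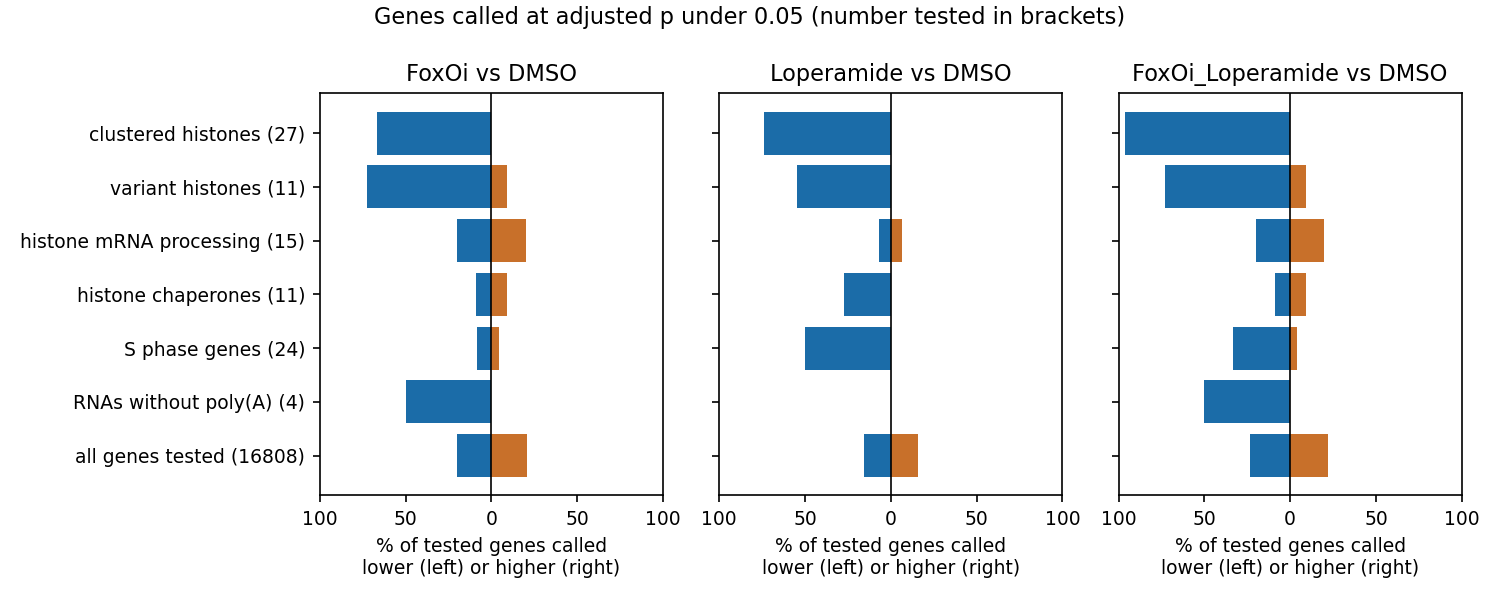
Share of tested genes called lower (left, blue) or higher (right, orange) at an adjusted p under 0.05, for the clustered histone members, for 5 gene lists and for all genes tested, against DMSO. The number tested is in brackets. Clustered histones were called lower in all panels and higher in none, and S phase genes were called lower mostly in the Loperamide and combined panels.

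Other transcripts that lack poly(A) tails were read as a measure of how much such RNA the libraries took up. Over 15 of them the sum was 10.9 ± 0.729 CPM with FoxOi, 17.0 ± 1.73 CPM with Loperamide and 11.6 ± 2.50 CPM with both, against 17.7 ± 3.06 CPM in DMSO (SD, n = 3 each). Of the 4 tested, Rpph1 (-0.87 ± 0.19) and Rn7s1 (-0.84 ± 0.20) fell with FoxOi, both also fell with the combination (-0.79 ± 0.19 and -0.54 ± 0.19), and 0 were called with Loperamide. Of all genes 20.3% were called lower with FoxOi, 15.8% with Loperamide and 23.2% with both, so calls among 4 genes say little. The sum was thus lower beside the FoxOi and combined histone results and overlapped DMSO beside the Loperamide result, and its part in those results was not tested.

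Markers of the labelled cell type were present: the 7 beta cell markers summed to 32654 to 37373 CPM with FoxOi, 60407 to 60999.9 CPM with Loperamide and 25027 to 29456 CPM with both, against 58913 to 82606 CPM in DMSO. The 4 macrophage markers summed to 18.6 to 19.3 CPM with FoxOi, 1.37 to 1.65 CPM with Loperamide and 4.35 to 5.06 CPM with both, against 2.24 to 3.52 CPM in DMSO. Cd68 gave 93.8% of this sum with FoxOi, 78.5% with Loperamide and 97.1% with both, against 77.6% in DMSO, and Csf1r gave most of the rest, while Ptprc and Adgre1 were at 0 in most libraries. Only Cd68 and Csf1r were tested, and with both compounds Cd68 was called higher than in DMSO and Csf1r lower. The 3 acinar markers were at 0 in all libraries. The part of these differences in the histone results was not tested.

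**Figure D5:**
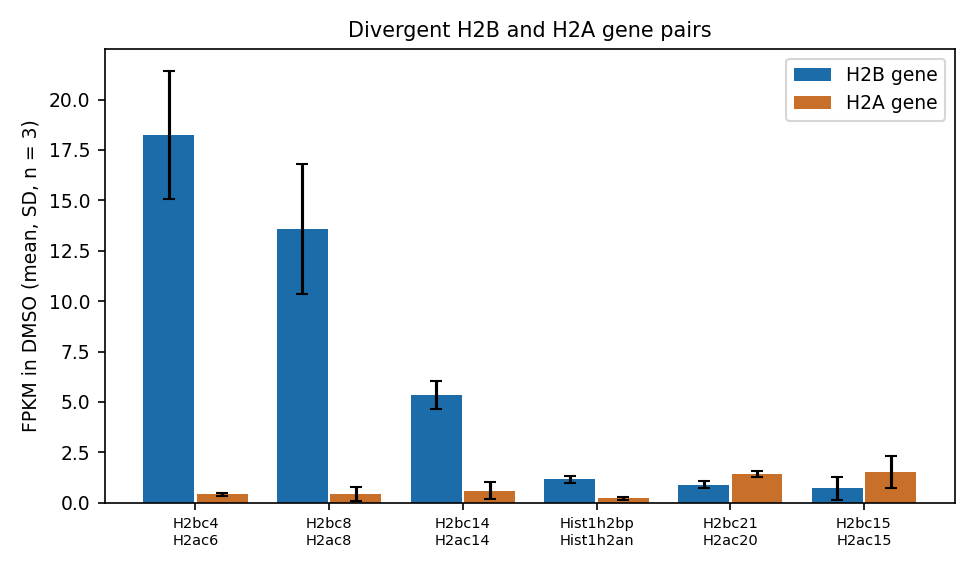
FPKM in DMSO (y axis, linear, from 0) of the 6 divergent gene pairs in which both the H2B and the H2A gene are members. Bars are means and whiskers SD (n = 3). The H2B gene is the higher in 4 pairs, led by H2bc4 over H2ac6.

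Among the clustered genes, 13 H2B and H2A pairs start back to back, 176 to 306 bases apart, from a shared promoter region. In some pairs the H2B gene stood well above its partner. In DMSO, H2bc4 stood at 18.2 ± 3.18 FPKM and H2ac6 at 0.420 ± 0.0766 FPKM, and H2bc8 at 13.6 ± 3.23 FPKM and H2ac8 at 0.449 ± 0.346 FPKM. In the pair on chromosome 3 the order per length was turned, with H2bc21 at 0.904 ± 0.187 FPKM and H2ac20 at 1.43 ± 0.152 FPKM. In counts H2bc21 was the higher, with 291 over the 12 libraries against 84 for H2ac20. Their annotated exons span 2620 and 520 bases. H2bc15, at 0.721 ± 0.560 FPKM, and H2ac15, at 1.53 ± 0.776 FPKM, did not differ beyond their SD. Transcripts of H2bc4 and H2bc8 have annotated 3′ UTRs of 742 and 200 bases, and those of their partners H2ac6 and H2ac8 have 2058 and 199 bases.

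Promoters of the members are shown for 3 genes that fell with both compounds, as the 150 bases before the annotated start (RefSeq, GRCm38.p6), 5′ to 3′ on the gene's strand. Capitals mark the CCAAT box, the letters TATAAA of the TATA box, and the octamer ATTTGCAT, a known element of H2B promoters, on either strand.
H1f2, chr13:23738657-23738806, plus strand: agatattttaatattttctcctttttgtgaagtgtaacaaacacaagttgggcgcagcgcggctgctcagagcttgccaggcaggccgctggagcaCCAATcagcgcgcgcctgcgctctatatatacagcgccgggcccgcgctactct
H2bc8, chr13:23571250-23571399, plus strand: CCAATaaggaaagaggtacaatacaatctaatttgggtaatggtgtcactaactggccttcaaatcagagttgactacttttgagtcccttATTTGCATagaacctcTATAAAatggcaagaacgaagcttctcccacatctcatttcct
H4c8, chr13:23530894-23531043, plus strand: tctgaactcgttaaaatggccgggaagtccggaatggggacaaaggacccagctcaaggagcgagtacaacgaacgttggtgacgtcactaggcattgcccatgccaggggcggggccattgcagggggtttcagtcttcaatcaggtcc
The stretch before H2bc8 is also the stretch before H2ac8, which starts on the other strand. In the 250 bases before the start, searched on both strands, CCAAT was found in 37 of 46 members with a RefSeq promoter (80.4%), against 33.9% of 32851 promoters. It was found in every one of the 11 H2A and 11 H2B promoters matched, and in 3 of 11 H4 promoters. TATAAA was found in 25 of 46 members (54.4%), against 12.4% of all promoters. The octamer was found in 8 of 46 (17.4%), against 1.6%, in 5 H2A and 3 H2B promoters. These are matches of letters and say nothing of binding.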

How the data were processed

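RNA of 12 Min6 libraries in 4 groups was measured. The authors deposited raw counts per gene, and the authors also deposited FPKM values. Per the submitters' processing notes, STAR 2.7.5a, Picard 2.19.2 and DESeq2 were used, with GRCm38 and mm10. How reads were counted, with or without strand, is not given in the sources used here, and reads shared by near-identical genes may be split or lost. Of 55487 gene IDs, 99.4% are in GENCODE M21, and all 69 clustered histone genes lie at its locations.

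Counts were tested in edgeR 4.0.16 (R 4.3.3) with TMM scaling, filterByExpr by group (minimum count 10, minimum total 15) and robust quasi-likelihood tests over all 12 libraries, which left 16808 genes and 8 residual degrees of freedom. P-values were adjusted over all genes tested by Benjamini-Hochberg at 0.05, and each SE is the size of the log2 fold change over the square root of F. Levels are CPM on TMM-scaled library sizes. The procedure was tested on simulated data. DESeq2 1.42.0 served as an alternative, as did another scaling, no filter, a filter of 10 counts in all, only the groups compared, and leaving out each library. Libraries with the same replicate number share a code (118, 178 or 68) in the labels, which do not say what it marks. Deviations of same-numbered libraries from their group means correlated at 0.115 or more in every pairing of groups but Loperamide with the combination (lowest 0.0915). The fit with a block for replicate number is given where it changed a call. Replicates of a group differed beyond sampling noise, with chi-square per degree of freedom of 5.09 or more.

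The members and gene lists were chosen with earlier results of these data known. Full values are given for up to 4 tested members of each class with the highest mean CPM and for the 3 largest rises and falls in each comparison. From the lists, named genes have the smallest adjusted p or were named beforehand. The lists, and the genes counted by cluster, 3′ UTR and unique windows, carry no test of their own. One S phase gene is not reported here and enters no count of that list. Depth ranged from 10640485 to 19499216 counts.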

Additional observations from a re-analysis of the deposited data

Results flagged for a closer look

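For 8 genes of the clustered histones and the related lists the change with both compounds differed from the sum of the single changes by the test of the interaction (edgeR quasi-likelihood test, adjusted p under 0.05). They were 1 of 27 members, 4 of 11 variants, 2 of 24 S phase genes and 1 of 11 chaperones. Of the 15 processing factors and 4 RNAs without poly(A) tested, 0 were called. Of all genes 9.48% were called, and only the variants, at 36.4%, lay above that share. H2ac10 had an interaction of 4.39 on the log2 scale (adjusted p = 0.0442), which rests on 1 count in the Loperamide libraries. Among the variants, it was 1.43 for Cenpa, 0.87 for H2ax, 0.82 for Macroh2a2 and 0.58 for H3f3b. These had lower values with each single compound than with DMSO. Among the S phase genes and chaperones it was 0.69 for Tyms, 0.60 for Mcm10 and 0.68 for Asf1b. Mcm10 measured 48.1 ± 4.28 CPM with FoxOi, 20.8 ± 2.51 CPM with Loperamide and 45.2 ± 5.19 CPM with both, against 33.7 ± 3.05 CPM in DMSO (SD, n = 3 each), so that the combination lay near FoxOi.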

How the results depend on the processing

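The counts of members called lower against DMSO (18 with FoxOi, 20 with Loperamide, 26 with both) stayed within 1.5 times. They ran from 14 to 20, 15 to 22 and 24 to 29 with each library left out, and from 16 to 24, 17 to 23 and 25 to 34 under the other scaling, DESeq2, the other filters and only the groups compared. No member that was called in either fit changed sign. With scaling by total counts alone, chosen after seeing the data, the median of all genes moved by 0.11, 0.12 and 0.17, and 15, 17 and 26 of the calls were kept. Among members by the symbols of the counts table, also chosen after seeing the data, the lower calls were 3, 2 and 3 against DMSO, 0 for both against FoxOi, 1 for both against Loperamide, and 0 higher in the interaction; only 6 genes enter. For both against Loperamide (7), leaving out single libraries gave 3 to 7. For the interaction (1 higher) they gave 0 to 3, DESeq2 size factors 2, the DESeq2 Wald test 2 and no filter 6; the cause was not tested. The fit of only the groups compared cannot hold the interaction. The summed H3 level with both over DMSO was 0.34 when scaled by all counts without TMM, in place of 0.31. A fit with a block for replicate number gave 7 higher interaction calls, and 22, 22 and 27 members lower against DMSO. Same-numbered libraries, which share a code in the labels, correlated at 0.0915 to 0.507 over 18 pairs and others at -0.469 to 0.105. The block ended no call of a tested member. Depth limits the 26 members left out by the filter, which had few counts.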
